A study of Chlorocebus aethiops with 12 samples.

Results

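The genes described here drive cell division: 16 act in the S phase, when DNA is copied, and 19 act in mitosis, when the copies are parted. They were chosen by name as a fixed list of 39 RefSeq accessions for 38 genes, and a probe was used where the array file gave it one of those accessions. The array held 35 of the 39, and these 35 are the members, out of 23757 accessions tested and 32379 on the array. The accessions listed for MCM7 (NM_005916), BIRC5 (NM_001168) and UBE2C (NM_007019) and 1 of the 2 listed for AURKA (NM_003600) had no probe and were skipped. All 35 passed the filter on dim probes, with signal well above background and no saturated spot on any of the 12 arrays. The files give accessions without gene symbols, so each symbol below was paired with its accession from knowledge of the human RefSeq records, and the accession stands beside it at first mention. Probe, promoter and protein sequences were not used here.

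The study asked how the protein MDFIC alters what the glucocorticoid receptor (GR) does to transcription. It used COS-1 cells, a kidney fibroblast-like line of the African green monkey, which carries the SV40 virus's large T antigen. All 4 groups carried transfected GR, and cells without it were not analysed here. The groups were GR cells with vehicle, GR cells with dexamethasone (Dex, a synthetic glucocorticoid), GR+MDFIC cells with vehicle, and GR+MDFIC cells with Dex, with 3 biological replicates in each. Dex was given at 100 nM for 6 h, beginning 48 h after transfection, in medium with charcoal-stripped serum. RNA was hybridised to one-colour Agilent arrays whose probes are designed on human transcripts, so signals are for human probes on monkey RNA. No level is compared between 2 probes here. Values are log2 signals relative to the 75th percentile of the same array, and a value of 0 is that percentile.

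Before S phase, CDC6 and CDT1 load the ring-shaped MCM helicase onto replication origins, a step called licensing. E2F factors and cyclin E with its kinase then start S phase, and PCNA and the enzymes of nucleotide supply carry the copying. Cyclin A and cyclin B with CDK1 bring the cell into mitosis, the spindle checkpoint holds it until chromosomes are attached, and CDC20 with the anaphase-promoting complex (APC/C) lets it out. Large T antigen binds the retinoblastoma protein and so frees E2F factors from it, and COS-1 cells divide under that influence. In RNA from whole cultures, fewer cells in a phase and less transcript per cell cannot be told apart.

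The arrays lay on 3 slides that overlap the groups only in part. Slide 1 held the 3 GR vehicle arrays and GR Dex 1, slide 2 held GR Dex 2 and 3 with GR+MDFIC vehicle 1 and 2, and slide 3, read on another scanner per the file headers, held GR+MDFIC vehicle 3 with the 3 GR+MDFIC Dex arrays. Signals were lower on slide 3, with 75th percentiles of 365 to 412 against 757 to 947 on the other slides before scaling, and 70.3% to 75.2% of spots per array were well above background. With slide as a fixed block, Dex in GR cells rests on 1 Dex array against 3 vehicle arrays and Dex in GR+MDFIC cells on 3 Dex arrays against 1 vehicle array. At a matched treatment no slide held both GR and GR+MDFIC cells. The labels were checked on MDFIC (NM_199072), which was higher in GR+MDFIC cells by 8.91 log2 units with vehicle and 8.40 with Dex, and on the Dex-induced gene TSC22D3 (NM_004089), which rose with Dex by 1.46 in GR and 1.47 in GR+MDFIC cells (limma, all adjusted p at most 1.07e-05). The second MDFIC probe with this accession differed by -0.17 and -0.24. The vimentin, KRT18 and PAX8 probes, markers a kidney line may hold, passed the filter. Of the markers looked up for other cells, the probe for CDH1, of epithelial junctions, also passed. Those for the blood marker PTPRC and the endothelial marker PECAM1 did not.

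The members varied little among replicates. Their median pooled SD within groups was 0.0632, against 0.108 over all tested accessions, from 0.028 (CENPE) to 0.12 (CENPA), both proteins of the centromere. All 35 members were well above background on every array, while a filter asking for this kept 20241 of the accessions instead of 23757. The median SDs of members and of all tested are thus not matched for signal. From the lowest to the highest of the 12 arrays the median member spanned 0.30 log2 units, and the widest span was 0.49, for CDC25A. No 95% confidence bound of a member in the 4 comparisons of 2 groups lay beyond 0.48 log2 units, which is 1.40-fold, on the brightest probe of each, while the second probes of RRM2 and E2F2 reached further.

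With Dex in GR cells, 2 of the 35 members fell and none rose (limma, adjusted p under 0.05). Both act at the start of S phase: CDC6, which loads the helicase, and cyclin E1. Of all tested accessions 7.1% were called, 2.73% as lower. Without adjustment 9 members had a p under 0.05, 25.7% of the 35 against 19% of all tested. Vehicle and Dex arrays did not overlap for 31.4% of the members (3 higher and 8 lower with Dex), against 26.2% of all tested. Lack of overlap for a single gene below is thus a common outcome with 3 arrays a group. Of the 35, 28 lay below 0 (80%, against 47.9% of all tested), and the median member changed by -0.052 log2 units against 0.0072 over all tested. The S-phase members had a median of -0.10, with 14 of 16 below 0, and the mitotic members a median of -0.041, with 14 of 19 below 0 and none called. Under normexp with quantile scaling these medians shrank to -0.042 and -0.018.

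With Dex in GR+MDFIC cells, 6 members fell and none rose. They were CDC6, both E cyclins, cyclin A2, CDK1 and the CDK1-activating phosphatase CDC25C, so 3 belong to S phase and 3 to mitosis. Here 13.5% of all tested accessions were called, 6.9% as lower. Without adjustment 11 members had a p under 0.05, which at 31.4% is close to the 31.9% of all tested. The groups did not overlap for 37.1% of the members (0 higher and 13 lower with Dex), against 32.1% of all tested. The median member changed by -0.086, against -0.0061 over all tested, and 24 of 35 lay below 0 (68.6%, against 51.3%). The medians were -0.058 for the S-phase and -0.091 for the mitotic members. In both kinds of cell together, 23 of the 35 members lay below 0 (65.7%) against 32.1% of all tested accessions, and CDC6 and CCNE1 were called lower in both.

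These calls depended on how the slides were modelled. With slide as a random block (correlation within slides 0.1206), CDC6 and CCNE1 kept their calls when MDFIC was absent. When it was present, CCNA2, CCNE2, CDC6 and CDK1 kept theirs, while CCNE1 and CDC25C did not. Elsewhere in the text, slide as a block means the fixed block. The fixed block rests each Dex effect on 1 array against 3, and the part of lower precision in its lost calls was not tested. With slide as a fixed block no member was called in any of the 5 comparisons by limma, while 6 members had an unadjusted p under 0.05 with Dex when MDFIC was absent (17.1%, against 16.9% of all tested) and 7 when it was present (20%, against 15.2%). In that fit 3.56% and 3.39% of all tested accessions were still called with Dex in the respective cells, 0.295% and 0.206% for MDFIC with vehicle and with Dex, and 0.0842% in the interaction. The median member's change with slide as a block was -0.070 in GR and -0.081 in GR+MDFIC cells, close to the values above, with 27 and 26 of the 35 below 0.

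**Figure D1:**
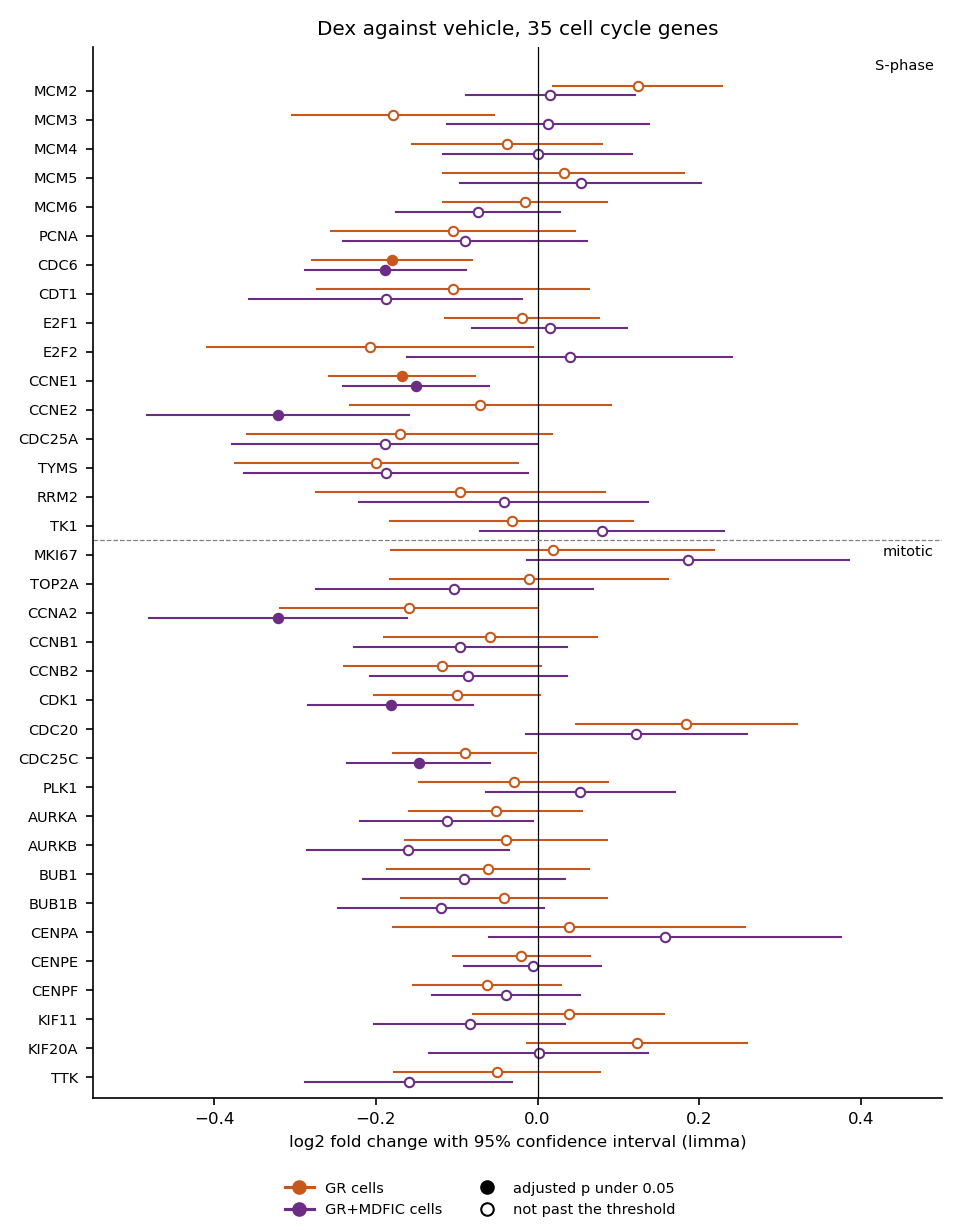
Change with Dex of each of the 35 members, as log2 fold change (x axis) with its 95% confidence interval from limma, in both kinds of cell. Filled points are calls at an adjusted p under 0.05: 2 members without MDFIC and 6 with it, all of them lower with Dex.

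Among the licensing genes, CDC6 (NM_001254) was the one called. In GR cells its log2 signal was 2.29, 2.23 and 2.30 with vehicle and 2.05, 2.10 and 2.12 with Dex. CDC6 in GR+MDFIC cells was at 2.32, 2.27 and 2.27 with vehicle and 2.16, 2.08 and 2.05 with Dex. All 6 Dex arrays were lower than all 6 vehicle arrays. The fall was 0.18 on the log2 scale in GR cells (a change of -0.18, SE 0.044, adjusted p = 0.03915), or 11.7% of the signal, and in GR+MDFIC cells the change was -0.19 (SE 0.044, adjusted p = 0.02183), both in limma. Blocked by slide, the changes were -0.23 (adjusted p = 0.1277) and -0.18 (adjusted p = 0.2492). The 12 arrays thus gave a change of like size with and without the fixed block, with a p past the threshold only without it.

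MCM2 (NM_004526), a subunit of the helicase, read 3.57, 3.60 and 3.52 with vehicle and 3.76, 3.66 and 3.65 with Dex in GR cells. Its 3 Dex arrays were above its vehicle arrays, by 0.12 (SE 0.047, adjusted p = 0.1762, limma), which missed the threshold. MCM2 in GR+MDFIC cells read 3.57, 3.62 and 3.51 with vehicle and 3.59, 3.58 and 3.58 with Dex, and these overlapped (95% interval of the difference -0.089 to 0.12). Another subunit, MCM3 (NM_002388) lay on the other side in GR cells, at -0.18 (adjusted p = 0.0973), with groups that did not overlap. MCM4 (NM_005914), MCM5 (NM_006739) and MCM6 (NM_005915) lay between -0.038 and 0.032 with Dex in GR cells and between -0.073 and 0.053 in GR+MDFIC cells. The subunits of the helicase thus lay on both sides of 0. CDT1 (NM_030928), which works with CDC6 in loading, changed by -0.10 (95% interval -0.27 to 0.064) in GR and -0.19 (-0.36 to -0.019) in GR+MDFIC cells, neither past the threshold. The second CDT1 probe gave -0.096 and -0.18.

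Of the 5 genes that start S phase, cyclin E1 was called in both kinds of cell and cyclin E2 in GR+MDFIC cells. CCNE1 (NM_001238) read 2.80, 2.75 and 2.72 with vehicle and 2.60, 2.62 and 2.55 with Dex in GR cells. CCNE1 in GR+MDFIC cells read 2.68, 2.67 and 2.63 with vehicle and 2.50, 2.54 and 2.49 with Dex. Dex arrays were below the vehicle arrays of the same cells in each case, and the changes were -0.17 (SE 0.040, adjusted p = 0.03494) and -0.15 (SE 0.040, adjusted p = 0.03674, limma). Blocked by slide they were -0.15 (adjusted p = 0.254) and -0.12 (adjusted p = 0.4242).

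Cyclin E2 (CCNE2, NM_057749) showed another pattern over the groups. In GR cells it read -2.80, -2.90 and -2.65 with vehicle and -2.96, -2.86 and -2.75 with Dex. CCNE2 in GR+MDFIC cells read -2.53, -2.49 and -2.51 with vehicle and -2.83, -2.88 and -2.79 with Dex. The 3 GR+MDFIC vehicle arrays were the highest of the 12, and the other 3 groups overlapped each other. Dex lowered CCNE2 in GR+MDFIC cells by 20.0% of its signal (log2 change -0.32, SE 0.072, adjusted p = 0.01797, limma), while in GR cells the change was -0.071 (95% interval -0.23 to 0.091). The difference between these Dex effects was -0.25 (95% interval -0.48 to -0.022) and did not pass the threshold (adjusted p = 0.5001). The blocked change in GR+MDFIC cells was -0.32 (adjusted p = 0.1647) and the difference between the Dex effects -0.14.

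E2F1 (NM_005225), a transcription factor that turns on many S-phase genes, did not differ with Dex beyond the replicate spread. Its signal in GR cells was 2.91, 2.89 and 2.87 with vehicle and 2.92, 2.86 and 2.83 with Dex. E2F1 in GR+MDFIC cells read 2.75, 2.79 and 2.75 with vehicle and 2.72, 2.83 and 2.78 with Dex. Vehicle and Dex overlapped in both, at -0.019 (95% interval -0.11 to 0.076) and 0.015 (-0.081 to 0.11). All 6 GR+MDFIC arrays were below all 6 GR arrays, a difference of -0.13 with vehicle (adjusted p = 0.1858) and -0.094 with Dex (adjusted p = 0.2094), neither past the threshold. The slide block left those differences at -0.046 and -0.051. CDC25A (NM_001789), the phosphatase that activates the kinase of cyclin E, changed with Dex by -0.17 in GR and -0.19 in GR+MDFIC cells, and both intervals reached 0 (-0.36 to 0.018 and -0.38 to 0.00010).

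In the genes of DNA synthesis and nucleotide supply none was called with Dex in either kind of cell. PCNA (NM_002592), the clamp that holds the polymerase on DNA, read 3.83, 3.76 and 3.84 with vehicle and 3.63, 3.64 and 3.85 with Dex in GR cells. PCNA in GR+MDFIC cells read 3.76, 3.63 and 3.78 with vehicle and 3.58, 3.66 and 3.66 with Dex. The groups overlapped in both, with differences of -0.10 (95% interval -0.26 to 0.046) and -0.090 (-0.24 to 0.061). RRM2 (NM_001034), a subunit of ribonucleotide reductase, which makes deoxynucleotides, read 3.44, 3.53 and 3.57 with vehicle and 3.32, 3.36 and 3.57 with Dex in GR cells. RRM2 in GR+MDFIC cells read 3.48, 3.39 and 3.63 with vehicle and 3.47, 3.41 and 3.49 with Dex. Its groups overlapped too, at -0.095 (95% interval -0.27 to 0.083) and -0.042 (-0.22 to 0.14). Thymidylate synthase (TYMS, NM_001071) changed by -0.20 in GR and -0.19 in GR+MDFIC cells (adjusted p = 0.1937 and 0.1351, limma), and thymidine kinase (TK1, NM_003258) by -0.032 and 0.080 (adjusted p = 0.8804 and 0.4426).

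Of the 7 members that bring cells into mitosis, 3 fell with Dex in GR+MDFIC cells and none passed the threshold in GR cells, where all 7 lay below 0. Cyclin A2 (CCNA2, NM_001237), which serves both S phase and mitotic entry, read 0.85, 0.92 and 0.98 with vehicle and 0.73, 0.67 and 0.87 with Dex in GR cells. CCNA2 in GR+MDFIC cells read 1.08, 0.95 and 1.08 with vehicle and 0.68, 0.64 and 0.82 with Dex. The Dex arrays of GR+MDFIC cells were all below the vehicle arrays, while in GR cells the highest Dex array lay above the lowest vehicle array. The changes were -0.32 in GR+MDFIC cells (SE 0.071, adjusted p = 0.01676) and -0.16 in GR cells (SE 0.071, adjusted p = 0.2618, limma), and their difference was -0.16 (95% interval -0.39 to 0.063). The fit with the slide block gave -0.36 in GR+MDFIC cells (adjusted p = 0.1512).

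CDK1 (NM_001786), the kinase that cyclins A and B activate for mitosis, read 4.27, 4.25 and 4.22 with vehicle and 4.14, 4.11 and 4.18 with Dex in GR cells. CDK1 in GR+MDFIC cells read 4.30, 4.23 and 4.19 with vehicle and 4.01, 4.11 and 4.07 with Dex. Groups did not overlap in either kind of cell. The change was -0.18 in GR+MDFIC cells (SE 0.046, adjusted p = 0.02877) and -0.100 in GR cells (SE 0.046, adjusted p = 0.2774, limma). It was -0.13 with that block in GR+MDFIC cells (adjusted p = 0.4274). CDC25C (NM_001790), the phosphatase that switches CDK1 on, read 1.19, 1.17 and 1.16 with vehicle and 1.05, 1.11 and 1.08 with Dex in GR cells. CDC25C in GR+MDFIC cells read 1.27, 1.24 and 1.25 with vehicle and 1.05, 1.15 and 1.13 with Dex. All 6 Dex arrays were below all 6 vehicle arrays, and the changes were -0.090 in GR (adjusted p = 0.2503) and -0.15 in GR+MDFIC cells (adjusted p = 0.03703, limma; -0.14 and 0.3261 with slide as a block).

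The B cyclins, which carry CDK1 through mitosis, were not called. CCNB1 (NM_031966) read 1.77, 1.72 and 1.78 with vehicle and 1.66, 1.64 and 1.81 with Dex in GR cells. CCNB1 in GR+MDFIC cells read 1.76, 1.77 and 1.90 with vehicle and 1.66, 1.75 and 1.72 with Dex. Its Dex arrays straddled the vehicle arrays in GR cells and lay just below them in GR+MDFIC cells, with differences of -0.058 (95% interval -0.19 to 0.074) and -0.095 (-0.23 to 0.037). CCNB2 (NM_004701) changed by -0.12 and -0.086 in the respective cells. PLK1 (NM_005030), a kinase of mitotic entry and spindle assembly, read 5.11, 5.12 and 5.07 with vehicle and 5.05, 5.14 and 5.01 with Dex in GR cells. PLK1 in GR+MDFIC cells read 5.10, 5.01 and 4.98 with vehicle and 5.04, 5.16 and 5.05 with Dex. These groups overlapped, at -0.030 (95% interval -0.15 to 0.087) and 0.053 (-0.064 to 0.17). AURKA (NM_198433), a kinase of the spindle poles, changed by -0.052 and -0.11.

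None of the 5 members of mitotic exit and the spindle checkpoint was called with Dex in limma. CDC20 (NM_001255), which activates the APC/C, read 2.87, 2.87 and 2.79 with vehicle and 3.09, 3.06 and 2.93 with Dex in GR cells. CDC20 in GR+MDFIC cells read 2.84, 2.92 and 2.78 with vehicle and 3.05, 2.95 and 2.91 with Dex. It stood above its vehicle arrays on all 3 Dex arrays in GR cells, at 0.18 (SE 0.061, adjusted p = 0.1204), and overlapped them in GR+MDFIC cells, at 0.12 (SE 0.061, adjusted p = 0.1987). With 0.18, CDC20 had the highest change of the 35 members in GR cells. The checkpoint kinases BUB1 (NM_004336), BUB1B (NM_001211) and TTK (NM_003318) lay at -0.062, -0.041 and -0.050 in GR cells. The same kinases in GR+MDFIC cells lay at -0.091, -0.12 and -0.16. Aurora B (AURKB, NM_004217), the kinase that corrects faulty spindle attachments, changed by -0.039 in GR and -0.16 in GR+MDFIC cells (adjusted p = 0.799 and 0.08767).

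The 7 members of the centromere, the kinesin motors and chromosome structure held no call either. TOP2A (NM_001067), the enzyme that untangles the copied chromosomes, read 0.87, 0.87 and 0.98 with vehicle and 0.84, 0.83 and 1.02 with Dex in GR cells. TOP2A in GR+MDFIC cells read 0.87, 0.66 and 0.91 with vehicle and 0.73, 0.66 and 0.74 with Dex. Vehicle and Dex overlapped in both, at -0.011 (95% interval -0.18 to 0.16) and -0.10 (-0.27 to 0.069). MKI67 (NM_002417), which encodes the proliferation marker Ki-67, read -2.73, -2.86 and -2.79 with vehicle and -2.81, -2.69 and -2.82 with Dex in GR cells. MKI67 in GR+MDFIC cells read -2.94, -2.98 and -2.74 with vehicle and -2.87, -2.58 and -2.65 with Dex. Overlap again held in both, with differences of 0.019 (95% interval -0.18 to 0.22) and 0.19 (-0.013 to 0.39). The centromere genes CENPA (NM_001809), CENPE (NM_001813) and CENPF (NM_016343) and the spindle motors KIF11 (NM_004523) and KIF20A (NM_005733) lay between -0.062 and 0.12 in GR cells, and between -0.084 and 0.16 in GR+MDFIC cells.

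**Figure D2:**
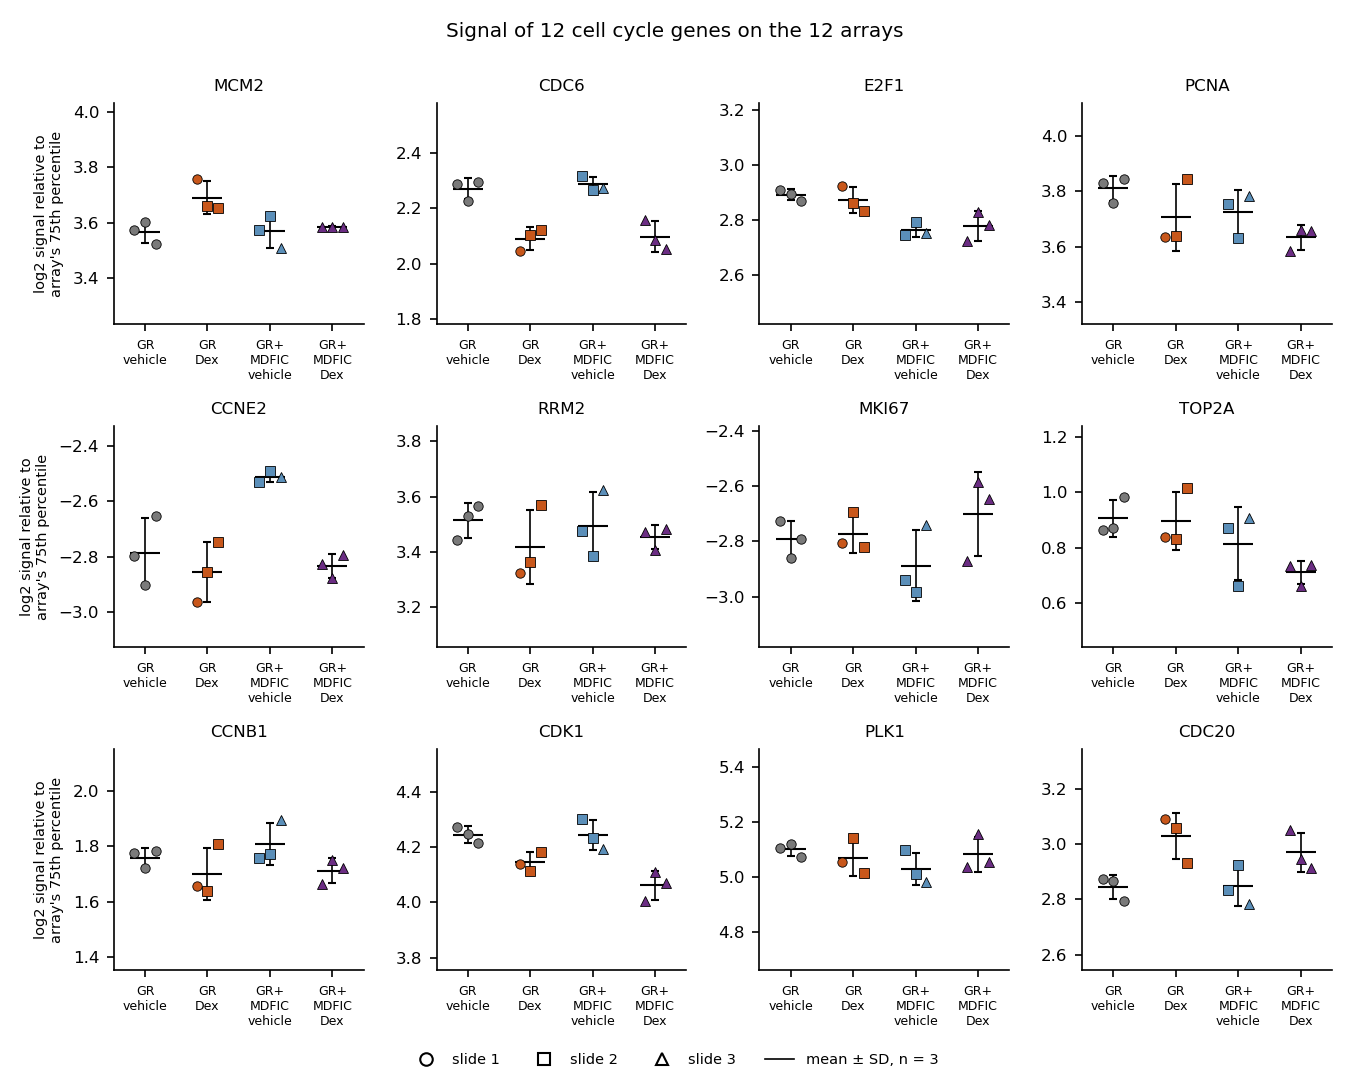
Log2 signal relative to the array's 75th percentile (y axis) of 12 members on each of the 12 arrays, by group (x axis); points are arrays, shapes are slides, and lines are group means with SD (n = 3). All 6 Dex arrays are below all 6 vehicle arrays for CDC6, and the 3 GR+MDFIC vehicle arrays are the highest for CCNE2.

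Single arrays decided many of these calls. With Dex in GR cells the count of 2 became 1 without GR+MDFIC vehicle 3 (CCNE1) or GR+MDFIC Dex 1 (CDC6), and 0 without any one of the other 10 arrays, each of which also changes the shared estimate of spread. With Dex in GR+MDFIC cells the count of 6 became 0 without GR+MDFIC vehicle 1, 1 without vehicle 2 and 8 without vehicle 3, the one on slide 3. It became 2, 1 and 2 without GR+MDFIC Dex 1, 2 and 3. Changes of the called members without 1 array ranged from -0.20 to -0.15 in GR cells and from -0.37 to -0.12 with MDFIC, and none turned its direction.

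S-phase and mitotic members were also compared array by array, as the median over each list of the deviation from the GR vehicle mean. For the S-phase list these medians were 0.019, -0.014 and 0.020 in GR vehicle, -0.076, -0.15 and -0.081 in GR Dex. The GR+MDFIC arrays had -0.047, -0.037 and -0.020 with vehicle and -0.12, -0.056 and -0.080 with Dex. All 6 Dex arrays were below all 6 vehicle arrays on the S-phase list. For the mitotic list the medians were 0.016, -0.028 and 0.0020 in GR vehicle and -0.069, -0.057 and 0.0073 in GR Dex. The mitotic medians of GR+MDFIC cells were 0.057, 0.014 and 0.052 with vehicle and -0.065, -0.0078 and -0.039 with Dex. The mitotic list overlapped between vehicle and Dex in GR cells and did not in GR+MDFIC cells.

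The gap between the lists, S-phase minus mitotic, averaged 0.012 ± 0.0080 (SD, n = 3) in GR vehicle and -0.063 ± 0.048 in GR Dex. It averaged -0.076 ± 0.026 in GR+MDFIC vehicle and -0.050 ± 0.0094 in GR+MDFIC Dex. The gap in GR vehicle lies near 0 by construction, since deviations are taken from the mean of that group. Relative to that mean, the S-phase list lay on average lower than the mitotic list in the last 3 groups, by less than 0.1 log2 units. On slide 1 the gap was -0.0076 in GR Dex 1, against -0.093 and -0.089 in GR Dex 2 and 3 on slide 2, and it was -0.10 and -0.051 in the GR+MDFIC vehicle arrays of slide 2. With slide as a block the list medians of the Dex effect in GR cells were -0.076 for S phase and -0.069 for mitosis, closer together than the -0.10 and -0.041 without it. For Dex with MDFIC present they were -0.083 and -0.059, against -0.058 and -0.091 without the block, so the order of the lists turned. These medians over genes chosen by name are descriptions and carry no test.

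**Figure D3:**
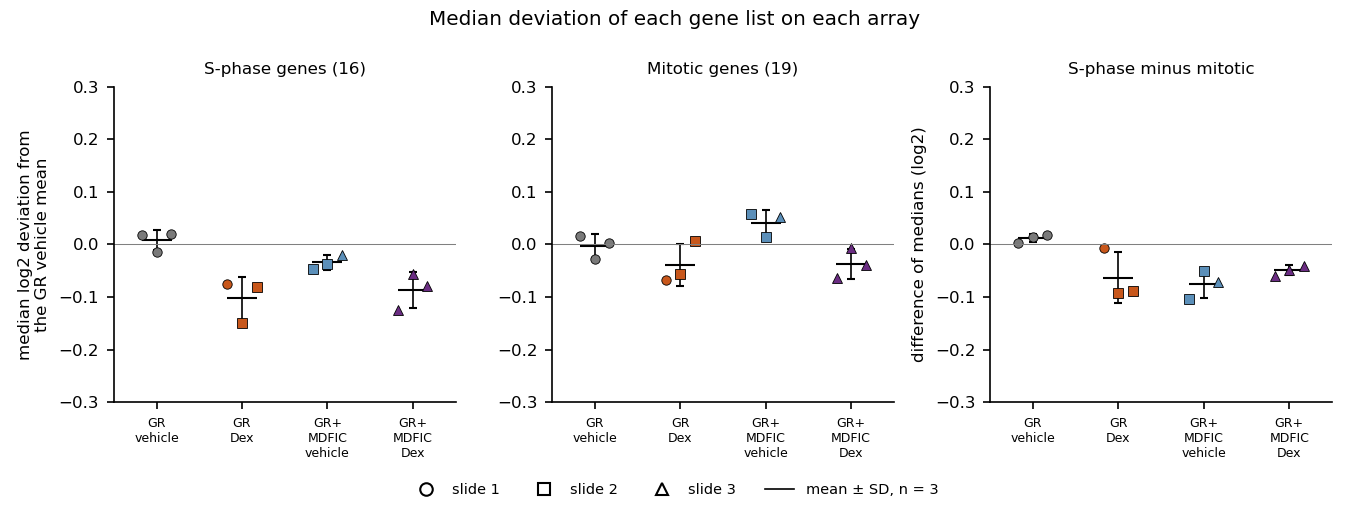
Median deviation from the GR vehicle mean (y axis, log2 units) over the 16 S-phase and the 19 mitotic members on each array, by group (x axis), with slides as shapes. The S-phase medians of the 6 Dex arrays, from -0.15 to -0.056, are below those of the 6 vehicle arrays, from -0.047 to 0.020.

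No member differed between GR+MDFIC and GR cells at an adjusted p under 0.05 in limma, either with vehicle or with Dex. With vehicle 0.846% of all tested accessions were called and with Dex 5.59%. Unadjusted p fell under 0.05 for 10 members with vehicle (28.6%, against 17.5% of all tested) and for 5 with Dex (14.3%, against 24.7%). Blocked by slide, 2.86% of the members had such a p in either treatment, against 9.9% and 6.6% of all tested. The medians of the members were 0.0019 and 0.0073, against -0.0020 and -0.0034 over all tested, and the 95% bounds of all members lay within -0.41 and 0.44 with vehicle and -0.36 and 0.30 with Dex. Since no slide held both kinds of cell at a matched treatment, the blocked values of these differences are indirect. Each starts from GR+MDFIC vehicle against GR Dex on slide 2. With vehicle it adds the Dex effect on slide 1, which rests on the single array GR Dex 1. With Dex it adds the Dex effect on slide 3, which rests on the single vehicle array GR+MDFIC vehicle 3.

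With vehicle, CCNE2 had the largest difference, 0.27 higher in GR+MDFIC cells (95% interval 0.11 to 0.44, adjusted p = 0.115), or 0.11 when blocked by slide. MCM3 had the lowest, at -0.23 (95% interval -0.35 to -0.10, adjusted p = 0.1011), and -0.34 with the block. TTK stood 0.20 higher (adjusted p = 0.1336), as did KIF20A, a kinesin of the final cell separation (0.20, adjusted p = 0.1628), and with the block they were at 0.013 and 0.081. All 3 arrays of 1 group exceeded those of the other for 11 members, 6 higher and 5 lower in GR+MDFIC cells, or 31.4% of the 35 against 22.2% of all tested (12% higher and 10.2% lower). Of these, the higher ones were mostly mitotic (5 of 6) and the lower ones mostly S-phase (4 of 5). The list medians, -0.015 for S phase and 0.038 for mitosis, turned their order with slide as a block, to 0.038 and 0.0073.

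With Dex, Aurora B had the lowest difference in the fit without a slide block, reading 0.71, 0.77 and 0.65 in GR cells and 0.60, 0.46 and 0.49 in GR+MDFIC cells. All 3 GR+MDFIC arrays were lower, by -0.20 (SE 0.056, adjusted p = 0.06767, limma), which missed the threshold, and the difference was -0.085 with slide as a block. It passed the threshold without GR+MDFIC vehicle 3 and with an intensity trend and robust variance. Cyclin B2 lay lower in GR+MDFIC cells both with vehicle (-0.20, adjusted p = 0.1196) and with Dex (-0.17, adjusted p = 0.09177), and its groups did not overlap in either. CENPE, a kinesin-like motor of the kinetochore, lay higher in both (0.093 and 0.11, adjusted p = 0.2519 and 0.1177) without overlap. TOP2A differed by -0.092 and -0.18, and with slide as a block it was the lowest member with Dex, at -0.35 (adjusted p = 0.7339). MCM2 differed by 0.0019 and -0.11. In all, 10 members had groups that did not overlap with Dex, 3 higher and 7 lower, against 32.1% of all tested accessions (16% each way).

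**Figure D4:**
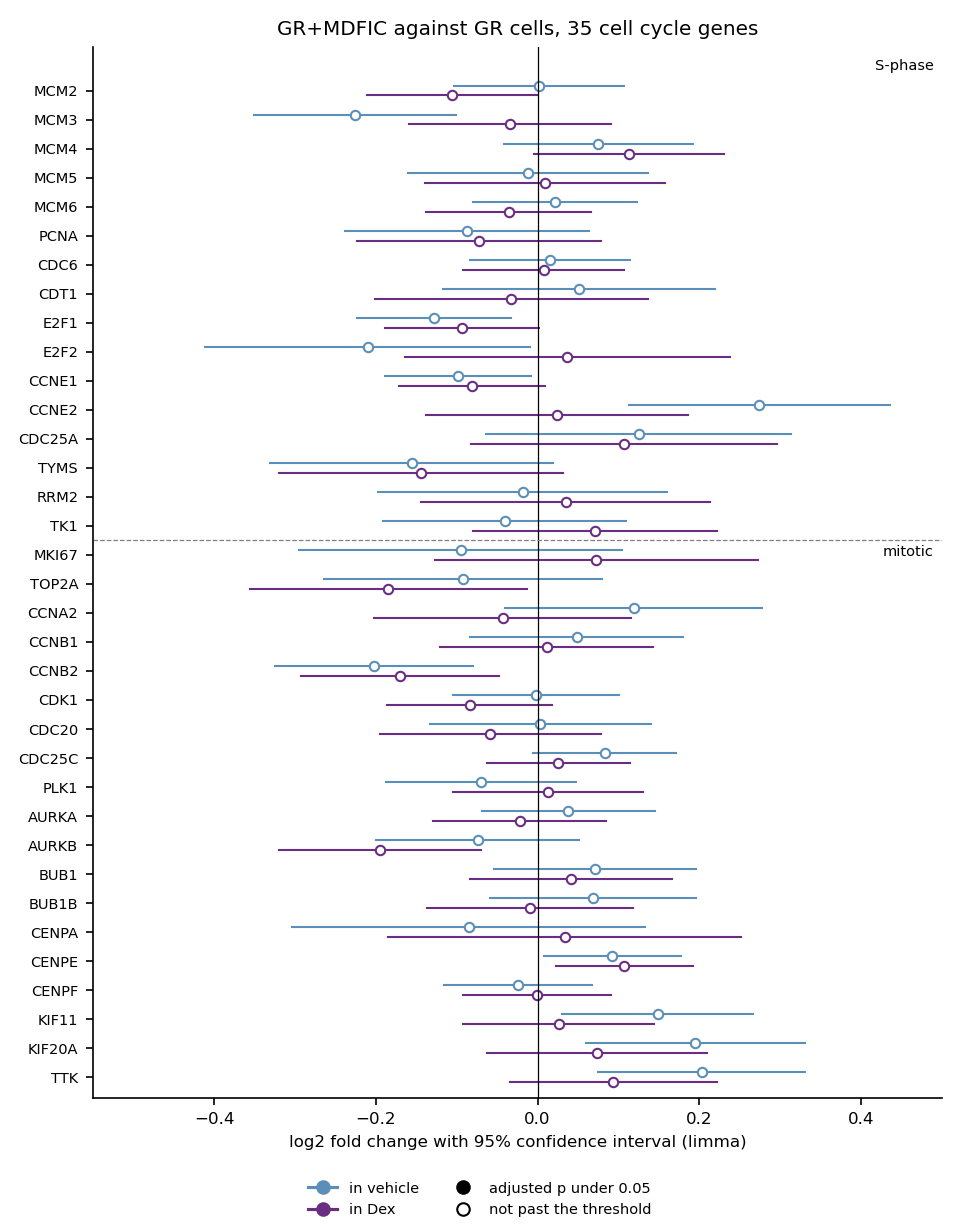
Difference of each of the 35 members between GR+MDFIC and GR cells, as log2 fold change (x axis) with its 95% confidence interval from limma, for either treatment. No point is filled, since no member passed an adjusted p of 0.05 in either treatment. The widest bound is 0.44, for CCNE2 with vehicle.

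The difference of the Dex effects between GR+MDFIC and GR cells, the interaction, was not past the threshold for any member, and 2 had an unadjusted p under 0.05 (5.71%, against 9.85% of all tested). Of all tested accessions 0.0589% were called. Those 2 were CCNE2, given above, and MCM3, at 0.19 (95% interval 0.015 to 0.37, adjusted p = 0.5001, limma), where Dex changed it by -0.18 in GR and 0.013 in GR+MDFIC cells. The bounds over all members ran from -0.48 to 0.53. A difference between the cells in how Dex acts on a single member could thus be as large as the Dex effects themselves and was not resolved by 3 arrays a group.

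For 7 members the array held a second probe past the filter, and with Dex and MDFIC present the effects of the probes lay furthest apart for E2F2 and RRM2. The Dex effects also differed in sign between the probes in GR cells for KIF11 (0.038 and -0.089), CENPF (-0.062 and 0.026) and PLK1 (-0.030 and 0.0061), and with MDFIC present for CENPF (-0.039 and 0.085), none of them called. E2F2 (NM_004091), a partner of E2F1, changed with Dex by -0.21 in GR (adjusted p = 0.2453) and 0.039 in GR+MDFIC cells (adjusted p = 0.7946) on the brighter probe. Its second probe read -1.45, -1.51 and -1.61 in GR vehicle, -1.41, -2.57 and -1.51 in GR Dex. That probe in GR+MDFIC cells read -2.75, -2.00 and -1.37 with vehicle and -1.37, -1.23 and -1.49 with Dex. The 3 low readings, GR Dex 2 and GR+MDFIC vehicle 1 and 2, all came from slide 2, and the fourth array of that slide, GR Dex 3, was not low. The change with Dex in GR+MDFIC cells on that probe was 0.67 (SE 0.36, adjusted p over probes 0.2329). For RRM2 the second probe changed by -0.17 in GR and -0.42 in GR+MDFIC cells (SE 0.12, adjusted p over probes 0.04502, limma), where the brighter one gave -0.042. The part of the slide in these departures was not tested.

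**Figure D5:**
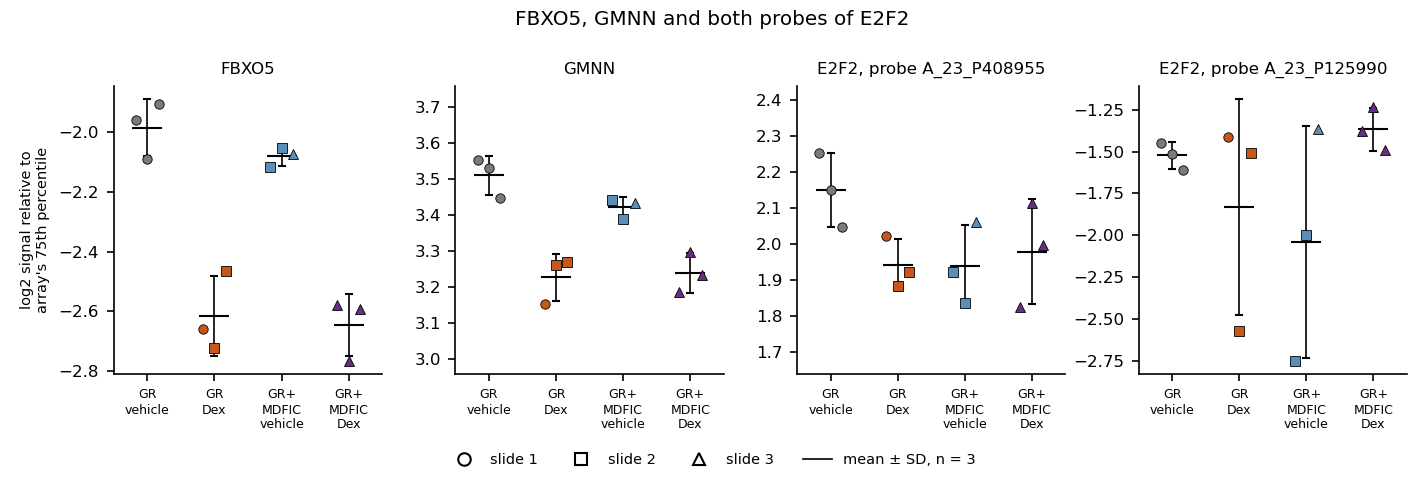
Log2 signal relative to the array's 75th percentile (y axis) of FBXO5, GMNN and both probes of E2F2 on the 12 arrays, by group (x axis), with group mean and SD (n = 3) and slides as shapes. FBXO5 and GMNN are lower on all 6 Dex arrays, and the 3 low points of the second E2F2 probe are arrays of slide 2.

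Other genes of the same processes were taken from a list of 57, of which 52 were tested, 22 of S phase and 30 of mitosis. With Dex, 3 fell without MDFIC and 5 with it, and none rose. Of the 52, 5.77% and 9.62% were called, all as lower, against 2.73% and 6.9% of all tested called as lower and 7.1% and 13.5% called in either direction. The median was -0.027 in GR and -0.080 in GR+MDFIC cells. FBXO5 and GMNN, which encode inhibitors of the APC/C and of licensing, were called in both kinds of cell.

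FBXO5 (NM_012177) encodes EMI1, which inhibits the APC/C during S phase and G2. It read -1.96, -2.09 and -1.91 with vehicle and -2.66, -2.72 and -2.47 with Dex in GR cells. FBXO5 in GR+MDFIC cells read -2.12, -2.05 and -2.07 with vehicle and -2.58, -2.77 and -2.59 with Dex. Its 6 Dex arrays were all below its 6 vehicle arrays. Dex lowered it by 35.4% in GR cells (log2 change -0.63, SE 0.080, adjusted p = 0.001231) and by 32.3% in GR+MDFIC cells (-0.56, SE 0.080, adjusted p = 0.001746, limma). These were larger than the Dex change of any of the 35 members on its brightest probe (the second probe of E2F2 changed by 0.67 in GR+MDFIC cells). The slide block gave -0.67 (adjusted p = 0.02987) and -0.57 (adjusted p = 0.05617), so that the call held in GR cells alone. It kept its call in all 26 alternatives for GR cells and in 24 of 25 for GR+MDFIC cells, though normexp with quantile scaling reduced the changes to -0.38 and -0.35. The difference between the cells was 0.067 (95% interval -0.19 to 0.32). MDFIC changed it by -0.096 with vehicle (95% interval -0.28 to 0.084) and -0.029 with Dex (-0.21 to 0.15).

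GMNN (NM_015895) encodes geminin, which binds CDT1 and blocks licensing once S phase has begun. It read 3.55, 3.53 and 3.45 with vehicle and 3.15, 3.26 and 3.27 with Dex in GR cells. GMNN in GR+MDFIC cells read 3.44, 3.39 and 3.44 with vehicle and 3.19, 3.30 and 3.23 with Dex. Again the 6 Dex arrays were the lowest, with changes of -0.28 in GR (SE 0.051, adjusted p = 0.008359) and -0.18 in GR+MDFIC cells (SE 0.051, adjusted p = 0.0409, limma). The blocked changes were -0.36 (adjusted p = 0.03496) and -0.20 (adjusted p = 0.2228). In GR cells the call was lost in 1 of 26 alternatives, the fit on the 2 compared groups alone (adjusted p = 0.06121), and in GR+MDFIC cells in 15 of 25, among them the fits without GR vehicle 1 or 2, GR Dex 2, any GR+MDFIC vehicle array, or GR+MDFIC Dex 1 or 3. Over all fits without 1 array the change there ranged from -0.21 to -0.16.

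The others were called in 1 kind of cell. ECT2 (NM_018098), an exchange factor needed for the final cleavage of the cell, fell with Dex in GR cells on its brightest probe (-0.23, adjusted p = 0.04865, limma). That probe lay at -0.12 in GR+MDFIC cells. Its other probes lay at -0.13 and 0.080 in GR cells and at -0.31 and -0.26 in GR+MDFIC cells. Averaging the probes ended the call, so ECT2 is not shown to fall in GR cells alone. MELK (NM_014791), a kinase abundant in dividing cells, fell in GR+MDFIC cells (-0.27, adjusted p = 0.03341) and lay at -0.049 in GR cells. NDC80 (NM_006101), which joins chromosomes to the spindle, fell in GR+MDFIC cells (-0.16, adjusted p = 0.02609) and lay at -0.13 in GR cells, and it is named after its value was seen, to complete the 5. ORC6 (NM_014321), of the complex that marks origins, fell in GR+MDFIC cells on the brighter probe (-0.23, adjusted p = 0.01651), while its second probe rose there (0.53, adjusted p over probes 0.02685). That second probe read 1.64, 1.81 and 2.21 in GR+MDFIC vehicle and 2.38, 2.50 and 2.37 in GR+MDFIC Dex, and its 4 highest arrays were the 4 of slide 3. Of the 12 fits that each left out 1 array, ECT2 kept its call only without GR vehicle 2 or GR+MDFIC vehicle 2, and MELK only without GR Dex 1, GR Dex 3 or GR+MDFIC vehicle 3. NDC80 lost its call without GR+MDFIC vehicle 1 or 2 or any GR+MDFIC Dex array, and ORC6 without GR+MDFIC vehicle 1 (-0.20) or GR+MDFIC Dex 1 (-0.19). Over all 12 such fits the changes ranged from -0.28 to -0.18 for ECT2, from -0.31 to -0.23 for MELK and from -0.20 to -0.13 for NDC80. Each of these 4 genes lost its call with slide as a block, and a direction for ORC6 is not given by its 2 probes together.

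With MDFIC, 0 of the 52 were called with vehicle in limma (15 at an unadjusted p under 0.05, 28.8% against 17.5% of all tested). With Dex 1 was called: GINS1 (NM_021067), a subunit of the GINS complex of the replicating helicase. It read 1.11, 1.07 and 1.09 in GR Dex and 0.88, 0.88 and 0.93 in GR+MDFIC Dex, lower by -0.19 (SE 0.035, adjusted p = 0.02568). With vehicle GINS1 read 1.05, 1.04 and 1.03 in GR and 0.87, 0.90 and 0.92 in GR+MDFIC cells, a difference of -0.14 (adjusted p = 0.0972). All 6 GR+MDFIC arrays were below all 6 GR arrays. With slide as a block the difference with Dex was -0.22 (adjusted p = 0.6192), and leaving out any one of the 6 Dex arrays ended the call.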

How the data were processed

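RNA was measured on 12 one-colour arrays, and the groups were taken from the sample labels. The deposited values are intensities on a linear scale. Agilent Feature Extraction made them, version 12 per the submitters' processing notes (12.0.0.7 on slides 1 and 2 and 12.0.3.1 on slide 3, per the file headers), with background subtraction and no scaling between arrays. The deposited flags are other values, 0 or 1 per spot. The deposited table of the whole series held the same intensities (largest difference 0).

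From these, log2 of the processed signal minus each array's 75th percentile over unflagged non-control spots was taken, and outlier spots were set to missing (34 values). A probe was kept if some group had it well above background on its 3 arrays and every group had at least 2 unflagged arrays. The brightest of an accession's probes stood for it. A group-means model on all 12 arrays was fitted in limma 3.58.1 (R 4.3.3), with 8 residual degrees of freedom and two-sided tests, and was tested on simulated data. Benjamini-Hochberg adjustment ran over all 23757 accessions, with calls at 0.05. The number of arrays limits the precision.

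Values on every array are given for 12 set members and for any other member called. Of the other genes of the pathway, up to 3 called per comparison were named, the largest first. The members and lists were chosen with earlier results of these data known, so no p is given over a list. The accession looked up for NR3C1, which encodes GR, matched no probe, so NR3C1 was not analysed here, and the planned promoter search was not run. Alternatives were other scalings, filters, probe rules, blocks, variance models and thresholds, and leaving out each array; the percentile over all spots was added after seeing the data. The normexp correction used spot medians.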

Additional observations from a re-analysis of the deposited data

How the results depend on the processing

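No called member changed sign in any alternative run. The count called with Dex in GR cells, 2, became 0 under quantile scaling, median scaling, no filter on dim probes, slide as a fixed block, an adjusted p under 0.01, a fit on the compared groups alone and without the arrays of slide 3. It became 1 under normexp with quantile scaling. With Dex in GR+MDFIC cells the count of 6 became 0 with slide as a fixed block or an adjusted p under 0.01, 3 without the filter and 1 on the compared groups alone (CCNE2). Leaving out 1 array gave 0 to 1 and 0 to 8 in those comparisons, 0 with MDFIC in vehicle and in the interaction, and 0 to 1 with MDFIC in Dex. An intensity trend with robust variance gave 1 with MDFIC in Dex (AURKB). ORC6 turned to 0.15 with Dex in GR+MDFIC cells when its probes were averaged. Same-numbered arrays did not deviate together (correlations from -0.24 to 0.14, 3 of 18 over 0.1). Most of these pairs lay on different slides, so the correlations cannot decide whether the numbers pair the arrays. With the replicate block the Dex counts were 1 without and 4 with MDFIC, and 0 in the other comparisons. Slide as a random block gave Dex counts of 2 without and 4 with MDFIC, and likewise 0 in the other comparisons. Median scaling moved the median of all tested accessions by less than 0.1, and of all calls with Dex in GR+MDFIC cells 38.8% were higher under it, against 49% in the fit reported. That share was 67.9% with slide as a fixed block, 63.2% on the compared groups alone and 60.7% at an adjusted p under 0.01. The list medians with Dex kept their sign in every alternative, from -0.14 to -0.042 (S phase) and -0.071 to -0.018 (mitosis) in GR cells, and from -0.11 to -0.037 and -0.14 to -0.057 with MDFIC. All members were well above background on every array, and the smallest change called among them was -0.15. Whether low signal reduces the changes of CCNE2 and MKI67, the members with the lowest readings, was not tested.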

Other observations

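PAX8 (NM_003466), a kidney transcription factor looked up as a marker of the line, read 4.11, 4.09 and 4.04 with vehicle and 3.76, 3.82 and 3.77 with Dex in GR cells. PAX8 in GR+MDFIC cells read 4.09, 4.04 and 4.11 with vehicle and 3.81, 3.80 and 3.79 with Dex. All 6 Dex arrays were below all 6 vehicle arrays, with changes of -0.30 (SE 0.039, adjusted p = 0.001407) and -0.28 (SE 0.039, adjusted p = 0.001537, limma). With slide as a block the changes were -0.32 (adjusted p = 0.0276) and -0.31 (adjusted p = 0.0325). The transfected MDFIC itself read 5.65, 5.53 and 5.86 in GR+MDFIC vehicle and 5.11, 4.89 and 5.29 in GR+MDFIC Dex, lower with Dex by -0.58 (SE 0.12, adjusted p = 0.01051), so the 2 GR+MDFIC groups differed in their MDFIC signal.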
